A study of Mus musculus with 16 samples.

Results

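Transcripts of 35 genes for histone and DNA modifying enzymes were examined in the whole brain of adolescent female C57BL/6J mice that drank nicotine, ethanol, both or neither. The 35 genes were taken by symbol and comprise 17 deacetylases (Hdac1 to Hdac11 and 6 sirtuins), 4 histone acetyltransferases, 9 histone methyltransferases and 5 DNA enzymes (2 DNA methyltransferases and 3 TET dioxygenases). All 35 were found among the 24062 genes of the count table, and all 35 were abundant enough to be tested in each of the 8 comparisons. RNA was sequenced from 16 mice, 4 in each of 4 groups, with 1 library for each mouse.

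All mice were singly housed and had 3 drinking bottles for 22 h a day, and the brain, cerebellum included, was taken at postnatal day 45. Water-Water mice, the controls, had only tap water. Nicotine-Water mice had nicotine at 200 µg/ml in all 3 bottles. Water-Ethanol mice had water in the bottles and 20% (v/v) ethanol in limited-access "drinking-in-the-dark" sessions on the last 4 days, lasting 2 h and on the final day 4 h. Nicotine-Ethanol mice had both drugs. Mice are named here by group and number. Mice drank voluntarily, so the dose differed between mice. On the final day, the study reported, Nicotine-Ethanol mice drank more ethanol than Water-Ethanol mice and had more of it in the blood. That was found in the larger cohort from which the sequenced mice were drawn at random. The paper does not give the intake of the sequenced mice, and it found no significant difference in intake on the earlier ethanol days. Ethanol comparisons without and with nicotine may thus differ in dose. The 3 bottles were absent during the 4 h session before the brain was taken, so nicotine drinkers then had no nicotine. The paper states that differences in its nicotine group may reflect withdrawal. A whole brain mixes all regions and cell types, and in such a sample fewer cells of one type cannot be told apart from less RNA in each cell.

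Histone acetyltransferases add acetyl groups to lysines of histone tails, which loosens chromatin and gives docking sites to activating proteins, and deacetylases remove them. Class I, II and IV deacetylases need zinc, whereas sirtuins need NAD+. Histone methyltransferases write marks of either active or silent chromatin, depending on the lysine. DNA methyltransferases place methyl groups on cytosines, mostly at CpG, and TET dioxygenases oxidise these groups on the way to their removal. Ethanol metabolism feeds acetate into the acetyl-CoA pool that acetyltransferases use, and class IIa deacetylases such as Hdac9 and Hdac5 shuttle between cytoplasm and nucleus with neuronal activity.

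The levels of the 35 genes differed widely, as FPKM (fragment counts scaled by transcript length and library depth, which allows genes of different length to be compared). Sirt2, a deacetylase of tubulin and histones abundant in oligodendrocytes, had the highest mean over 16 mice, at 89.9 FPKM (range 81.3 to 96.7). Hdac11, the one class IV enzyme, followed at 76 FPKM (69.2 to 82.3), and it lay under Sirt2 in 16 of 16 mice. The next genes were Hdac2 at 48.5 FPKM, Hdac5 at 43.7 FPKM and Ehmt2 at 39.8 FPKM. Only 4 neighbours in the order of means had ranges over mice that did not overlap: Hdac11 above Hdac2, Sirt3 above Kmt2e, Kat2a above Dnmt3a, and Hdac10 above Tet1. From Dnmt3a at 14.8 FPKM down to Hdac10 at 3.58 FPKM every neighbouring pair overlapped.

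**Figure D1:**
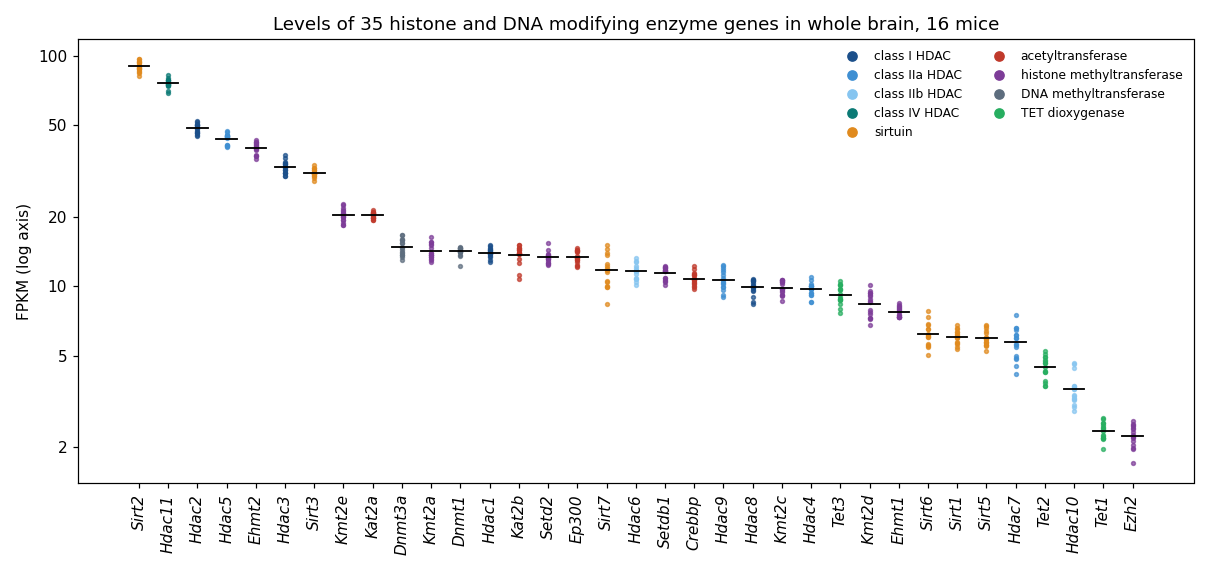
FPKM on a log axis for each of the 35 genes in 16 mice (points, coloured by class) with the mean (bar), in order of the mean. Sirt2 and Hdac11 stand highest, with means of 89.9 and 76 FPKM, and Tet1 and Ezh2 lowest, with 2.36 and 2.25 FPKM.

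Most classes held genes of unequal level (means, with the range over 16 mice in parentheses). Among class I deacetylases, of which Hdac1, Hdac2 and Hdac3 are catalytic subunits of corepressor complexes, Hdac2 was highest (44.8 to 52.1) and Hdac8 lowest at 9.9 FPKM (8.37 to 10.8). Among class IIa enzymes Hdac5 was highest (40.1 to 47.2) and Hdac7 lowest at 5.72 FPKM (4.16 to 7.53), and in class IIb Hdac6, the tubulin deacetylase, had 11.6 FPKM (10.1 to 13.3) against 3.58 (2.88 to 4.63) for Hdac10. Sirtuins ran from Sirt2 down to the mitochondrial Sirt5 at 5.97 FPKM (5.25 to 6.76). Acetyltransferases ran from Kat2a at 20.3 FPKM (19.3 to 21.4) to Crebbp, also CBP, at 10.8 FPKM (9.7 to 12.2). Methyltransferases ran from Ehmt2 (35.5 to 43), also G9a, which writes H3K9 dimethylation, to Ezh2, the catalytic subunit of Polycomb repressive complex 2, at 2.25 FPKM (1.71 to 2.6). Dnmt3a, the de novo methyltransferase, had 14.8 FPKM (13 to 16.7) and Dnmt1, the maintenance enzyme, 14.2 FPKM (12.2 to 14.8). Of the TET dioxygenases Tet3 had 9.2 FPKM (7.67 to 10.5), Tet2 4.45 FPKM and Tet1 2.36 FPKM (1.96 to 2.68).

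The libraries were similar in depth, with 27100352 to 32880979 counts each. Of these, 2 stood apart in cerebellum transcripts. Cerebellum transcripts, scored as the mean centred log2 level of 13 markers, of which 13 were detected, were at -1.31 in Water-Water 21 and -0.89 in Nicotine-Water 10, and between 0.04 and 0.25 in the other 14 mice. Gabra6, a receptor subunit of cerebellar granule cells, had 1070.2 and 1655 normalised counts in Water-Water 21 and Nicotine-Water 10, against 3423 to 4487 in the others. Nicotine-Water 10 also held the highest count of the ribosomal RNA precursor Rn45s and of pituitary prolactin (Prl). Olfactory bulb markers (8 of 8 detected), scored in the same way, were low in other mice. They were at -0.72 in Water-Ethanol 15, -0.54 in Nicotine-Ethanol 4 and -0.49 in Nicotine-Water 11, and between -0.18 and 0.34 elsewhere. Oligodendrocyte markers (8 of 8 detected) summed to 204416 to 243739 normalised counts in Water-Water, 208672 to 238838 in Nicotine-Water, 188379 to 219287 in Water-Ethanol and 200916 to 230187 in Nicotine-Ethanol. Microglia markers (8 of 8 detected) summed to 6306 to 8334 in Water-Water, 6496 to 7150.0 in Nicotine-Water, 6182 to 6635 in Water-Ethanol and 5759.6 to 7076 in Nicotine-Ethanol. No defining marker of these lists was at 0 in all mice. The part of these differences in the results below was not tested beyond the fits named there.

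Of the members, 2 passed the test across all genes (edgeR quasi-likelihood test, Benjamini-Hochberg adjusted p under 0.05): Hdac9, lower in Water-Ethanol than in Water-Water, and Tet3, higher in the 8 ethanol-drinking mice than in the 8 others. Their start regions are shown because they differ in composition. Each is a window of 300 bases, from 250 before to 50 after a RefSeq start (GRCm38.p6), printed 5′ to 3′ on the minus strand from which both genes are read, with CpG in capitals. Hdac9 has 2 such starts, at chr12:34917046-34917345 and, inside the gene, chr12:34528840-34529139. Tet3 has 1, at chr6:83441629-83441928.
Hdac9, outer start: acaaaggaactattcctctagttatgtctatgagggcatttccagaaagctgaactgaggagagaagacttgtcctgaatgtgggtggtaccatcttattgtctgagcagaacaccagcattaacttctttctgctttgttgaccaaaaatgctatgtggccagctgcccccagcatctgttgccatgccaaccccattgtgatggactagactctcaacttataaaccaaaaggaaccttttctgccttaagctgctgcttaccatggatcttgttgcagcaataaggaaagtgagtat
Hdac9, inner start: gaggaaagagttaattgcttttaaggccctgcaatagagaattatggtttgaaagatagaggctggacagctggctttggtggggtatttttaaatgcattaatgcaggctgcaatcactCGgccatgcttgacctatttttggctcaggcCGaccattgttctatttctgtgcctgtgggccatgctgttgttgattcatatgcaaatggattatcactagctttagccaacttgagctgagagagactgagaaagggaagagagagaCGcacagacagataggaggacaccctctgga
Tet3: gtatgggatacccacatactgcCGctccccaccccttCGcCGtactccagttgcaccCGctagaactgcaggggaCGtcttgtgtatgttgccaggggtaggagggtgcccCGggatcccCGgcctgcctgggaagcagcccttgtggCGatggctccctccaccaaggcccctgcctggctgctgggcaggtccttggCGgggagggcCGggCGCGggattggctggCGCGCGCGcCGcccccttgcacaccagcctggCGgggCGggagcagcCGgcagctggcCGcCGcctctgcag

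The Hdac9 windows held 0 and 3 CpG and the Tet3 window 22. Over all 32817 RefSeq windows of this kind the median was 7 CpG, and 31.4% had at most 3. The deposited values are gene sums and do not separate the Hdac9 starts. The outer Hdac9 window holds the TATA box letters TATAAA, present in 13.6% of all windows, and the inner one the AP-1 letters TGANTCA, present in 7.81%. The Tet3 window holds the GC box GGGCGG, present in 35.6% of all windows. Letters were searched on both strands, and a match is a description of the sequence and not a binding site.

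Starts were listed for 31 of the 35 genes, 43 windows in all. Most were rich in CpG: 32 of 43 (74.4%) had an observed over expected CpG ratio of at least 0.6, against 35.8% of all windows. The Tet3 window, at 0.58, was just under this ratio, and its 22 CpG equalled the median of the 43 windows. The GC box stood in 29 of 43 windows (67.4%), against 35.6% of all windows. The full cAMP response element TGACGTCA was in 0 of 43 windows and in 1.79% of all windows, and its core TGACG, which the full element contains, was in 8 of 43 (18.6%, against 20.8%). The E-box CANNTG was in 26 of 43 windows (60.5%) and in 72.3% of all.

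**Figure D2:**
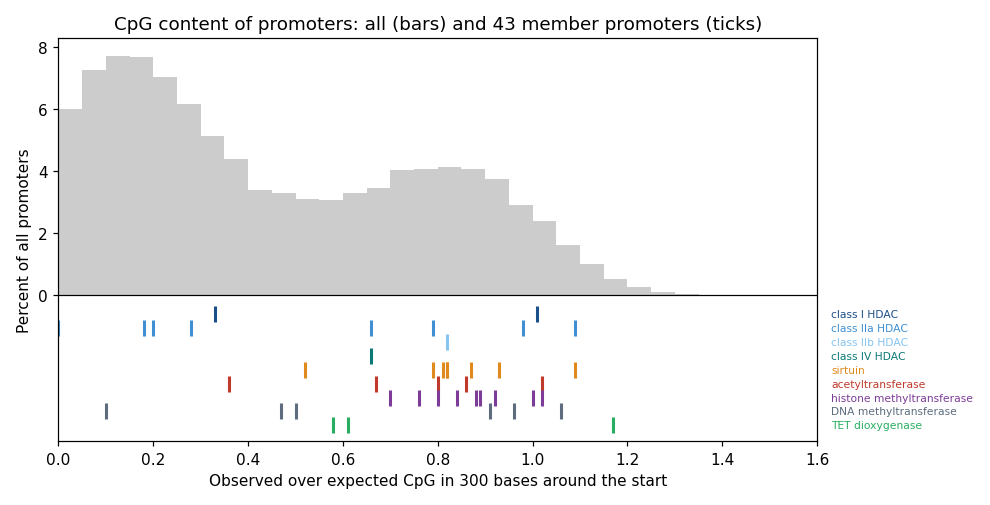
Observed over expected CpG ratio in 300 bases around RefSeq starts (horizontal axis), for all windows (bars, percent of windows) and for the 43 windows of the members (ticks, a row for each class, vertical position without scale). Histone methyltransferase ticks lie between 0.70 and 1.02, and both Hdac9 windows at or under 0.20.

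Hdac9 encodes a class IIa deacetylase that represses MEF2 target genes (ENSMUSG00000004698, chr12:34047582-34917095, minus strand, GRCm38, 29 exons). In the 4 Water-Water mice it had 1851, 1818, 1887 and 1829 normalised counts, a spread of 1.64% of the mean. The 4 Water-Ethanol mice had 1549, 1624, 1422 and 1601, the 4 Nicotine-Ethanol mice 1566, 1588, 1457 and 1771, and the 4 Nicotine-Water mice 1465, 1729, 1727 and 1609. Every one of the 12 treated mice lay below every Water-Water mouse, whereas the 3 treated groups overlapped each other. Of 15592 genes tested with all 16 mice, 0.936% had all treated mice below Water-Water and 0.16% all above, and Hdac9 was the 1 member of either kind.

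In Water-Ethanol against Water-Water, Hdac9 fell by 0.25 on the log2 scale (SE 0.0456, edgeR adjusted p = 0.0452), which is -15.9%. It was the 1 member called of 35 in this comparison, in which 0.457% of 15323 genes were called, 0.183% with a lower level. Against the same Water-Water mice the differences of Nicotine-Ethanol (-0.21, edgeR adjusted p = 0.089) and Nicotine-Water (-0.18, edgeR adjusted p = 0.363) missed the threshold, and these comparisons share their controls. In Nicotine-Ethanol against Nicotine-Water, which share no mouse with Water-Ethanol against Water-Water, the difference was -0.04 (SE 0.068, edgeR adjusted p = 0.866). The test of whether ethanol acted differently with nicotine gave 0.22 (SE 0.0859, edgeR adjusted p = 0.687), so a difference between both settings was not shown. With 4 mice against 4, the exact two-sided permutation p of 0.0286, reached here, is the smallest possible. It is not adjusted, and Hdac9 was picked for its call in these same counts.

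The Hdac9 call stood near the threshold. It was lost when any of the 8 mice other than Water-Water 21 was left out, with log2 changes from -0.27 to -0.21, and 4 of those 7 fits called no gene at all. Without Water-Water 21 it held (-0.25, edgeR adjusted p = 0.0196). Water-Ethanol 15, low in olfactory bulb markers, had the lowest Hdac9 count of its group (1422), and so had Nicotine-Ethanol 4 (1457). Nicotine-Water 11, also low in them, did not (1609, against 1465 in Nicotine-Water 7). The part of olfactory bulb transcripts was not tested.

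Tet3, the most abundant TET enzyme here, encodes the dioxygenase that also acts on the paternal genome of the zygote (ENSMUSG00000034832, chr6:83362374-83441678, minus strand, GRCm38, 11 exons). The Water-Water mice had 3053, 2749.7, 2812 and 2739.5 normalised counts, and the Nicotine-Water mice 2694, 2412, 2661 and 2515. The Water-Ethanol mice had 3182, 2883, 3124 and 3029.7, and the Nicotine-Ethanol mice 3257, 2749, 3008 and 3148. All Nicotine-Water mice lay below all mice of the other 3 groups, whereas Water-Water overlapped Water-Ethanol and Nicotine-Ethanol. The share of all genes with Nicotine-Water below every other mouse was not counted.

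Over both drinking backgrounds, ethanol-drinking mice had 12.9% more Tet3 transcript (log2 0.17, SE 0.0403, edgeR adjusted p = 0.0193). An exact two-sided permutation test within water and nicotine drinkers gave p = 0.00204. This p is not adjusted, and Tet3 was picked for its call in these same counts, so it is not separate evidence. Tet3 was the 1 member called of 35, where 4.69% of 15592 genes were called, 3.07% with a higher level. The call held in 24 of 24 alternatives, with edgeR, DESeq2 or limma adjusted p from 0.00267 to 0.0495 and leave-one-out changes from 0.15 to 0.20. Within the water drinkers the difference was 0.11 (Water-Ethanol against Water-Water, edgeR adjusted p = 0.213) and within the nicotine drinkers 0.24 (Nicotine-Ethanol against Nicotine-Water, edgeR adjusted p = 0.211). Their difference (0.14, SE 0.0759, edgeR adjusted p = 0.79) was not shown. Nicotine alone gave -0.14 (Nicotine-Water against Water-Water, edgeR adjusted p = 0.495).

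**Figure D3:**
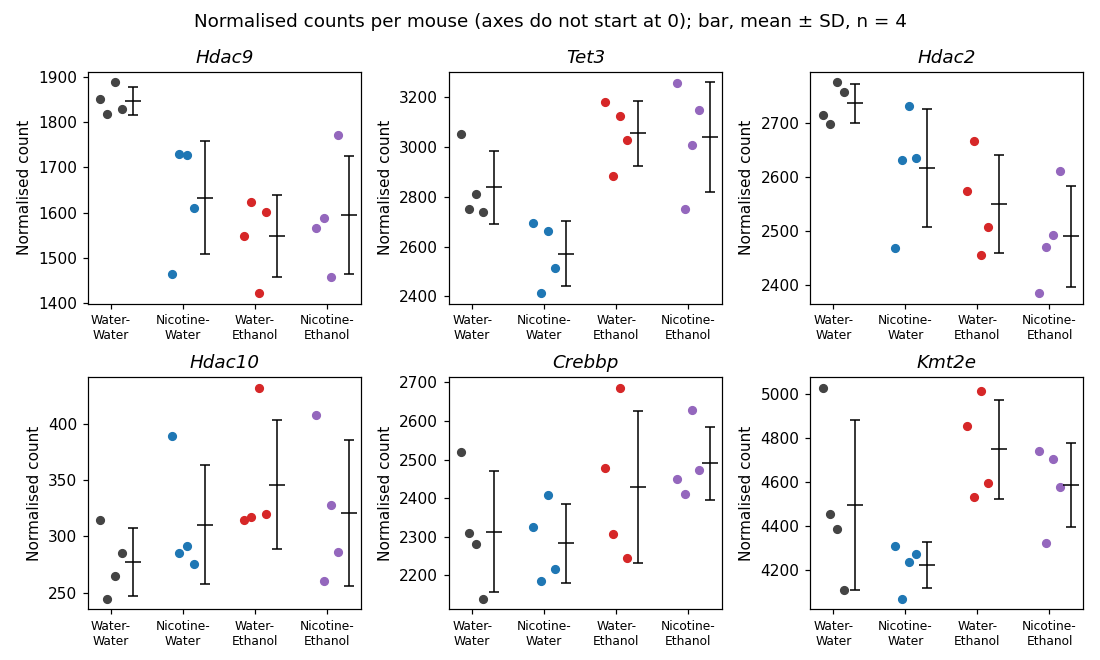
Normalised counts (vertical axes, not from 0) in each mouse of the 4 groups for the 6 genes with a call or with groups that did not overlap, with mean ± SD (n = 4). Hdac9 is lower in all treated mice than in Water-Water, and Tet3 is lowest in Nicotine-Water, between 2412 and 2694.

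Hdac2, a class I deacetylase of the Sin3, NuRD and CoREST complexes, differed in the same direction in both ethanol groups without passing the test. It had 2713, 2697, 2774 and 2757 normalised counts in Water-Water, 2573, 2665, 2455 and 2508 in Water-Ethanol, and 2385, 2471, 2493 and 2611 in Nicotine-Ethanol. Neither ethanol group overlapped Water-Water, and the Nicotine-Water mice, with 2468, 2631, 2729.7 and 2635, overlapped all groups. The log2 differences were -0.10 for Water-Ethanol (SE 0.0364, edgeR adjusted p = 0.17) and -0.13 for Nicotine-Ethanol (SE 0.0357, edgeR adjusted p = 0.104). Over both backgrounds the difference was -0.09 (edgeR adjusted p = 0.0778). DESeq2 called it in Nicotine-Ethanol against Water-Water (adjusted p = 0.0396) and over both backgrounds (adjusted p = 0.0395), and limma on FPKM over both backgrounds.

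Hdac10, a class IIb enzyme that deacetylates polyamines, was a gene of low count. It had 315, 245, 265 and 285 normalised counts in Water-Water and 315, 317, 432 and 319.8 in Water-Ethanol. The groups did not overlap, but the highest Water-Water and the lowest Water-Ethanol mouse were less than 1 count apart. The log2 difference of 0.32 (SE 0.113, edgeR adjusted p = 0.154) missed the threshold, and Nicotine-Ethanol (408, 260.3, 328 and 286) and Nicotine-Water (389.5, 285, 292 and 276) overlapped both.

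In Water-Ethanol against Water-Water, 9 of 35 members had an unadjusted p under 0.05, against 19.3% of all genes. Of these, 6 were higher (against 10.3% of genes) in Water-Ethanol (Hdac5, Hdac10, Kmt2d, Ehmt1, Setdb1 and Tet3) and 3 lower (Hdac2, Hdac9 and Sirt2, against 9.05%). Groups did not overlap for 3 members, Hdac2, Hdac9 and Hdac10, where 10.8% of all genes were in that position. In Nicotine-Ethanol against Water-Water 0 members passed the adjusted test, where 0.313% of 15313 genes did, and 7 had an unadjusted p under 0.05, against 17.5% of all genes. Of the 7, Hdac4, Hdac5, Kmt2d, Ehmt2 and Dnmt3a were higher (9.22% of genes) and Hdac2 and Hdac9 lower (8.23%). DESeq2 called Hdac2 and Hdac9, both lower, and 4.29% of the genes it gave an adjusted p. Groups did not overlap for 2 members, against 10.7% of genes. With a correction for GC content, 6 members had an unadjusted p under 0.05 in Water-Ethanol (2733 of 15041 genes). In Nicotine-Ethanol 2 members did (1954 of 15028 genes). Without it the log2 difference over members went with transcript GC content, with Spearman correlations of 0.35 and 0.57. The part of GC content was not tested beyond that fit.

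Among the members, small differences were mostly positive for acetyltransferases and methyltransferases and mostly negative for sirtuins. All 4 acetyltransferases were above 0 in Water-Ethanol against Water-Water (median 0.062) and all 4 in Nicotine-Ethanol against Nicotine-Water (median 0.109), although Kat2a rounded to 0.00 in both. The 9 genes listed as methyltransferases include Kmt2e, which reads H3K4 methylation. Of these 9, 8 were above 0 in Water-Ethanol against Water-Water (median 0.10) and 9 in Nicotine-Ethanol against Nicotine-Water (median 0.085). Kmt2e was above 0 in both (0.08 and 0.12). Acetyltransferases and methyltransferases outside the members did not share this direction. Of 12 other acetyltransferases, 6 were above 0 in the first of these comparisons and 6 in the second (medians 0.005 and -0.003). Of 27 other histone methyltransferases, 12 and 15 were above 0 (medians -0.020 and 0.014). Of 6 sirtuins 5 were below 0 in each (medians -0.042 and -0.063). Of all 17 deacetylases, sirtuins included, 10 were above 0 in the first comparison and 5 in the second (medians 0.064 and -0.035), and of the 4 class I enzymes 3 and 0. Class IIa had 3 of 4 above 0 in each. The median of all genes was 0.002 in both comparisons, with 50.6% and 50.7% of genes above 0. In these comparisons no acetyltransferase, methyltransferase or sirtuin passed the adjusted test. The direction also went with transcript length in the second comparison, where 15 of 18 members with exons of 4426 bases or more in total were above 0 and 6 of 17 shorter ones were, against 15 and 11 in the first. The part of length was not tested. Water-Water 21, low in cerebellum transcripts, ranked 14 or 15 of 16 mice (1 lowest) for each sirtuin. It ranked 1 or 2 for each acetyltransferase and methyltransferase but Kat2a, Ezh2, Setdb1 and Ehmt2 (10, 5, 11 and 15). Without it 4 acetyltransferases and 7 methyltransferases were above 0 and 4 sirtuins below 0 in the first comparison. Without Nicotine-Water 10 these counts were 4, 9 and 5 in the second. The part of cerebellum transcripts was not tested further.

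Water-Ethanol against Water-Water and Nicotine-Ethanol against Nicotine-Water have no mouse in common. Between them 24 of 35 members (68.6%) had the same sign, 18 higher and 6 lower in both, against 64.1% of 15243 genes. The nicotine comparisons without shared mice, Nicotine-Water against Water-Water and Nicotine-Ethanol against Water-Ethanol, had the same sign for 12 members (34.3%), against 53.9% of 15216 genes.

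**Figure D4:**
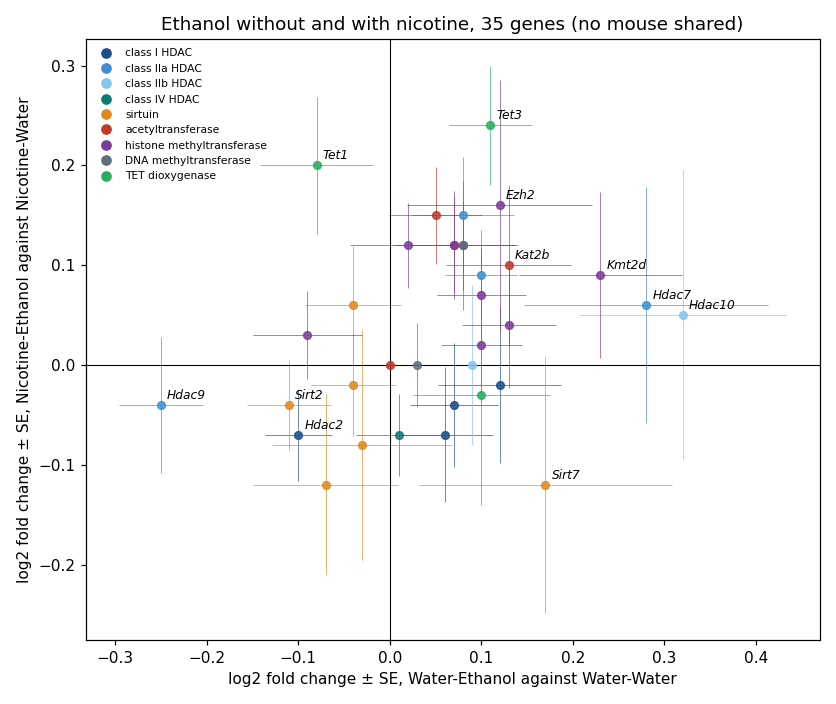
Log2 fold change ± SE of each member in Water-Ethanol against Water-Water (horizontal axis) and Nicotine-Ethanol against Nicotine-Water (vertical axis), coloured by class, with 4 mice in each group. Of 35 genes, 18 lie in the upper right part, and Hdac9 lies far left at -0.25 and near 0 at -0.04.

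In Nicotine-Ethanol against Nicotine-Water no member passed the adjusted test, and no gene of 15361 did (0%). DESeq2 called Tet3 there (adjusted p = 0.041), and 0.759% of the genes it gave an adjusted p. An unadjusted p under 0.05 was found for 8 members, all higher in Nicotine-Ethanol: Hdac4, Crebbp, Ep300, Kmt2a, Kmt2c, Kmt2e, Tet1 and Tet3. Over all genes 11.9% had such a p, and 6.97% had it with a higher level in Nicotine-Ethanol. The groups did not overlap for Crebbp, Kmt2e and Tet3, against 7.43% of all genes.

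Crebbp and Ep300 encode the paired coactivators CBP and p300, acetyltransferases recruited by CREB. Crebbp had 2325, 2185, 2407 and 2216 normalised counts in Nicotine-Water and 2449.5, 2412, 2628 and 2472 in Nicotine-Ethanol, 0.12 higher on the log2 scale (SE 0.048, edgeR adjusted p = 0.36). In Water-Water it had 2519.8, 2310.3, 2282 and 2140.4 and in Water-Ethanol 2477, 2308, 2686 and 2244, and these groups overlapped. Ep300 differed by 0.15 between Nicotine-Ethanol and Nicotine-Water (SE 0.0485, edgeR adjusted p = 0.291), with 3 of 4 Nicotine-Ethanol mice above all Nicotine-Water mice. Kmt2e, a MLL family protein that reads H3K4 methylation, had 4307, 4069, 4235 and 4273 in Nicotine-Water and 4739, 4321, 4705 and 4578 in Nicotine-Ethanol, a difference of 0.12 (SE 0.0444, edgeR adjusted p = 0.347). In Water-Water it had 5029, 4454, 4387 and 4107 and in Water-Ethanol 4855, 4529, 5012 and 4595. Of its 7258 exon bases 874 are shared with the exons of Srpk2, so reads in that stretch could belong to either gene.

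Over both drinking backgrounds 13 of 35 members had an unadjusted p under 0.05, 10 higher and 3 lower in ethanol drinkers, against 22.7% of all genes (12.6% higher and 10.1% lower). Above 0 were 26 members, against 50.8% of genes. Besides Tet3 and the genes above these were Hdac4 (0.12) and Hdac5 (0.10), Ep300 and Crebbp (both 0.10), Kmt2a (0.10), Kmt2d (0.16), Kmt2e (0.10), Ehmt2 (0.08) and Dnmt3a (0.10), and Sirt2 at -0.07. None of these passed the adjusted test in edgeR, whereas DESeq2 called Hdac2, Hdac5 and Tet3, with 8.87% of the genes it gave an adjusted p. Among 18 members with exons of 4426 bases or more in total 16 were above 0, and among 17 shorter ones 10 were, so the direction also went with transcript length. The Spearman correlation of the log2 difference over members was 0.46 with exon length and 0.26 with GC content. The part of length in these differences was not tested.

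**Figure D5:**
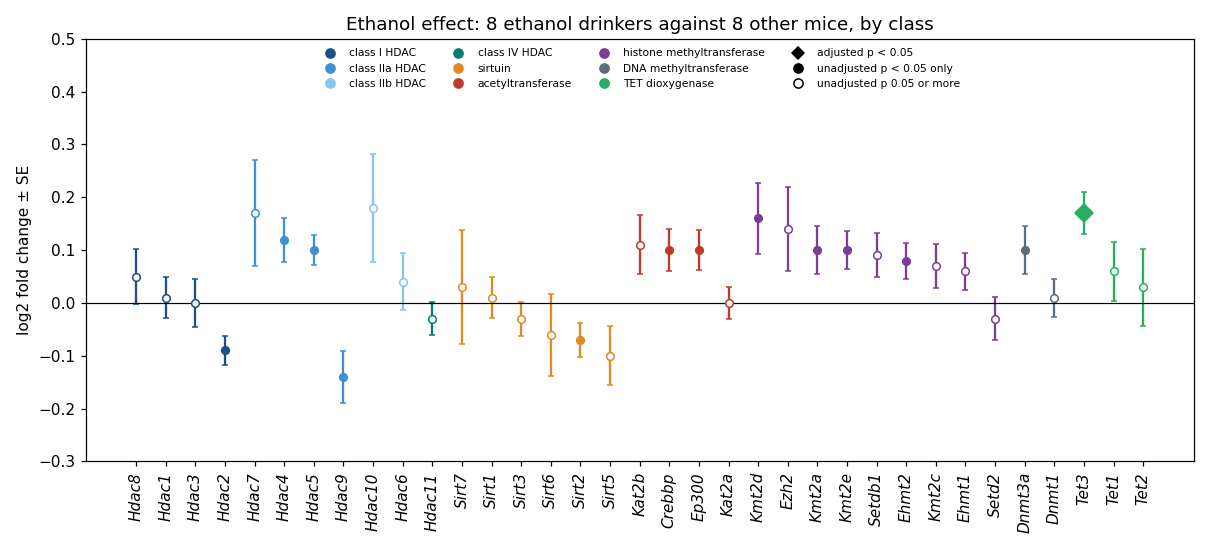
Log2 fold change ± SE of ethanol drinkers (Water-Ethanol and Nicotine-Ethanol, 8 mice) against the others (Water-Water and Nicotine-Water, 8 mice), ordered by class. The diamond, Tet3 at 0.17, passed the adjusted test, filled circles had an unadjusted p under 0.05 only, and Hdac9 at -0.14 was the lowest.

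The calls of Hdac5, Ehmt2 and Setdb1 depended on how the mice low in cerebellum transcripts were treated. Setdb1 writes H3K9 trimethylation at retroelements. With the cerebellum score as a covariate, 4 members were called in Water-Ethanol against Water-Water, namely Hdac9 and, higher, Hdac5 (0.13, edgeR adjusted p = 0.0348), Ehmt2 (0.15, edgeR adjusted p = 0.0397) and Setdb1 (0.18, edgeR adjusted p = 0.0413), with 4.86% of all genes. Without Water-Water 21 these and Hdac7 (0.41, edgeR adjusted p = 0.0494) were called, and 5.17% of all genes. Without Water-Water 21 and Nicotine-Water 10, Hdac5, Ehmt2, Setdb1 and Tet3 were called over both backgrounds, all higher, with 6.51% of all genes. The fit of Water-Ethanol against Water-Water with all mice and no covariate called Hdac9 alone among members. A correction for GC content in that fit removed the Hdac9 call, and 0.259% of genes were called. There Hdac5 was at 0.05 (edgeR adjusted p = 0.464), Ehmt2 at 0.05 and Setdb1 at 0.14. The GC correction was not combined with the covariate or with leaving out a mouse. Hdac5 had 4466, 4563, 4518 and 4984 normalised counts in Water-Water and 4901, 4929.8, 5023 and 4944 in Water-Ethanol, so that Water-Water 21 alone overlapped Water-Ethanol. Kat2b (PCAF), an acetyltransferase, had its lowest counts in the same 2 mice, 1338 in Water-Water 21 and 1321 in Nicotine-Water 10, against 1544 to 1808 elsewhere.

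Nicotine alone gave no call. In Nicotine-Water against Water-Water 0 of 35 members and 0% of 15344 genes passed the adjusted test, while DESeq2 called 1.04% of the genes it gave an adjusted p and no member. An unadjusted p under 0.05 was found for 4 members, all lower in Nicotine-Water: Hdac9, Sirt1, Tet1 and Tet3, against 8.44% of all genes and 6.49% lower. Groups did not overlap for Hdac9 and Tet3, against 5.96% of genes. Over both ethanol backgrounds Sirt1, an NAD+-dependent deacetylase of histones and transcription factors, was lower by a log2 value of -0.12 in nicotine drinkers (SE 0.0393, edgeR adjusted p = 0.346), the 1 member with an unadjusted p under 0.05 there, against 9.99% of genes. The adjusted test was passed by 0% of all genes in this comparison. Over members the log2 difference went with transcript GC content, with a Spearman correlation of 0.59 in Nicotine-Water against Water-Water. Over both ethanol backgrounds this correlation was 0.65. With exon length the correlations were -0.37 and -0.26. The parts of GC content and length were not tested beyond the GC-corrected fit.

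In ethanol drinkers with against without nicotine (Nicotine-Ethanol against Water-Ethanol), 0 of 35 members passed the adjusted test and 0 had an unadjusted p under 0.05, against 0% and 5.8% of all genes, and DESeq2 called no member. For 0 members did the groups separate, against 3.52% of genes. In the test of interaction 0 members and 0% of genes were called, DESeq2 called no member, with an unadjusted p under 0.05 for Hdac9 and Tet1 (6.76% of genes). Tet1 stood at 1011 ± 75.7 normalised counts in Water-Water, 895 ± 55 in Nicotine-Water, 958 ± 54.6 in Water-Ethanol and 1028 ± 83.1 in Nicotine-Ethanol (SD, n = 4), an interaction of 0.28 (SE 0.0945, edgeR adjusted p = 0.678). The remaining 16 members had no unadjusted p under 0.05 in any of the 8 comparisons. They were Hdac1, Hdac3, Hdac6, Hdac7, Hdac8, Hdac11, Sirt3, Sirt5, Sirt6, Sirt7, Kat2a, Kat2b, Setd2, Ezh2, Dnmt1 and Tet2. In the 5 pairwise comparisons their log2 differences ran from -0.15 (Ezh2, Nicotine-Water against Water-Water) to 0.28 (Hdac7, Water-Ethanol against Water-Water), and the lowest edgeR adjusted p in all 8 comparisons was 0.228 (Kat2b, over both backgrounds, ethanol drinkers against others).

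Of 108 other genes for acetyltransferases, methyltransferases, demethylases, readers and corepressor partners, 107 were tested. Over both backgrounds 8 were called (7.48%, against 4.69% of all genes), 7 higher (3.07% of all genes) and 1 lower (1.62%) in ethanol drinkers. Those higher were the H3K9 demethylase Phf2 (0.16, edgeR adjusted p = 0.00466), the demethylases Kdm2a (0.13) and Kdm7a (0.21), the methyltransferases Whsc1l1 (Nsd3, 0.14) and Setd8 (Kmt5a, 0.19), the CoREST scaffold Rcor1 (0.20), and Mbd5 (0.20, edgeR adjusted p = 0.00672), a methyl-CpG-binding domain protein. Prmt7, an arginine methyltransferase, was lower (-0.12, edgeR adjusted p = 0.0409). The calls of Phf2, Kdm2a, Mbd5, Rcor1 and Whsc1l1 held in 24 of 24 alternatives. That of Kdm7a was lost without Nicotine-Water 8, Nicotine-Ethanol 2 or Nicotine-Ethanol 4 (edgeR adjusted p up to 0.0583). That of Setd8 was lost without any 1 of 7 mice, namely Water-Water 19 or 20, Nicotine-Water 8, Water-Ethanol 15 or 16, and Nicotine-Ethanol 2 or 4 (up to 0.0796). That of Prmt7 was lost in 11 of 24 alternatives, with no filter on low counts and without any 1 of 10 mice (up to 0.0877), namely Water-Water 19 or 20, Nicotine-Water 8 or 10, Water-Ethanol 13 or 15, and each Nicotine-Ethanol mouse. Mbd5 was also called in Nicotine-Ethanol against Water-Water (0.22, SE 0.0351, edgeR adjusted p = 0.0372), at 2719 ± 93.2 against 2337 ± 22.4 normalised counts (SD, n = 4). That call held in 6 of 16 alternatives and was lost with all 16 mice in 1 fit, with limma at either pseudocount and without any 1 of 7 of its 8 mice, all but Water-Water 21 (adjusted p up to 0.176). Phf2 had 2118 to 2293 normalised counts in Water-Water, 2029 to 2263 in Nicotine-Water, 2335 to 2475 in Water-Ethanol and 2383 to 2431 in Nicotine-Ethanol. Every ethanol drinker lay above every other mouse, but Phf2 was picked for its call in these same counts. The share of all genes with such a separation was not counted. These lists were, like the members, chosen with earlier results known, and the median of the 107 was 0.025 against 0.002 for all genes.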

How the data were processed

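Whole-brain RNA of 16 female mice (4 per group) was sequenced as single reads. The authors trimmed reads with Trimmomatic 0.32, mapped them to the mouse genome (mm10, GRCm38) with TopHat2 and deposited read counts per gene, whose counter is not given in the sources used here, and FPKM values from Cufflinks and Cuffdiff, which are scaled for length and depth by the authors. The labels name an unstranded kit and the study's methods a stranded one, so reads of overlapping genes may be shared.

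Counts of 27100352 to 32880979 per mouse were tested with edgeR 4.0.16 (TMM, filterByExpr, quasi-likelihood, Benjamini-Hochberg over all genes tested, threshold 0.05) in R 4.3.3. Pairwise fits used the mice of both groups only, and the ethanol effect, nicotine effect and interaction all 16. Normalised counts are counts scaled by TMM to the mean library. The script was tested on simulated data with planted changes larger than any member difference given here. That test does not show how often changes of the size given here would be found. Alternatives were DESeq2 1.42.0, RLE factors, no filter, GC correction (lowess, span 0.3), the cerebellum score as a covariate, 1 fit of all mice, limma 3.58.1 on log2(FPKM + 1) and log2(FPKM + 0.1), each mouse left out, and, chosen after seeing the data, Water-Water 21 and Nicotine-Water 10 left out together.

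Genes were named with values in every mouse where a member passed the adjusted test in any comparison or had groups that did not overlap with an unadjusted p under 0.05. The highest and lowest member of each class by mean FPKM are given with the range over mice, and others by class, counts and ranges. Values of Hdac5, Hdac7, Sirt1, Kat2b, Ep300, Ehmt2, Setdb1 and Tet1 were added after they were seen. The members and lists were chosen with earlier results of these data known. The labels do not say whether mice were litter mates. Start regions are from RefSeq (GRCm38.p6).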

Additional observations from a re-analysis of the deposited data

Results flagged for a closer look

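Within the 140 groups of 4 mice (35 genes in 4 groups), 7 values lay far from the other 3 by Dixon's criterion, which is 5% of groups and about the share that chance gives. Hdac8 had 476 normalised counts in Water-Ethanol 13 against 496 to 499 in the other Water-Ethanol mice. Hdac10 had 389.5 in Nicotine-Water 7 against 276 to 292, and 432 in Water-Ethanol 15 against 315 to 319.8. Sirt3, a mitochondrial sirtuin, had 1229 in Nicotine-Ethanol 3 against 1096 to 1117. Kat2b had 1338 in Water-Water 21, one of the mice low in cerebellum transcripts, against 1672 to 1721. Kmt2a had 6335 in Nicotine-Ethanol 3 against 7217 to 7398. Setdb1 had 1553 in Water-Ethanol 14 against 1627 to 1635.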

How the results depend on the processing

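No paired analysis was possible because the groups share no replicate number. The number of members called in Water-Ethanol against Water-Water (1) became 0 with GC correction, with all 16 mice in 1 fit and with limma at either pseudocount, 4 with the cerebellum score as a covariate, and 0 to 5 when 1 mouse was left out (5 without Water-Water 21). In Nicotine-Ethanol against Water-Water (0) it was 2 with DESeq2, 2 with the covariate and 0 to 1 leaving out 1 mouse (1, Hdac5, without Water-Water 21). In Nicotine-Ethanol against Nicotine-Water (0) it was 1 with DESeq2. For the ethanol effect (1) it was 3 with DESeq2, 4 with the covariate, 2 with limma at either pseudocount, 4 without both mice low in cerebellum transcripts (chosen after seeing the data) and 1 to 4 leaving out 1 mouse (2 without Water-Water 18 or Water-Water 21, 3 without Nicotine-Ethanol 5, 4 without Nicotine-Water 7). Counts in the other comparisons stayed at 0 in every alternative run. The Hdac9 change in Water-Ethanol against Water-Water kept its sign in 16 alternatives and lost its call in 11. Values near 0 changed sign: Hdac9 in Nicotine-Ethanol against Nicotine-Water ran from -0.09 to 0.00 (the latter without Nicotine-Ethanol 4) and in Nicotine-Ethanol against Water-Ethanol from -0.01 (without Nicotine-Ethanol 5; -0.00 without Water-Ethanol 15) to 0.08 when 1 mouse was left out. Tet3 in Nicotine-Ethanol against Water-Ethanol was 0.03 with the covariate and ran from -0.04 to 0.04 when 1 mouse was left out (above 0 without Water-Ethanol 13, Water-Ethanol 15 or Nicotine-Ethanol 3). Of 972 values of 51 gene results under alternatives, 929 kept their direction and side of the threshold, 11 lost a call, 25 gained one and 7 changed sign. Only Hdac9 in Water-Ethanol against Water-Water and Tet3 over both backgrounds were called in the main fit. Most of the 929 were thus values that stayed uncalled, which is a weak measure of stability. The ratio of the highest (Sirt2) to the lowest (Ezh2) level per length, averaged over the ratios of the 16 mice, was 40.4 in FPKM and 35.2 in counts per kilobase of exon. By counts per kilobase Sirt6 (142), not Sirt5 (164), was the lowest sirtuin, and Hdac9 moved from rank 21 to 29 of the 35 genes. The causes were not tested. Only 4 mice stand behind each group mean.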
